A study of Mus musculus with 20 samples.

Results

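Collagen is modified and folded inside the cell and trimmed outside it. This account follows the messenger RNA of 10 genes of these steps through bone marrow stromal cells in which the transcription factor gene Ebf1 was or was not targeted. The genes were taken by symbol: the prolyl 4-hydroxylase alpha subunits P4ha1, P4ha2 and P4ha3, the lysyl hydroxylases Plod1, Plod2 and Plod3, the collagen chaperone gene Serpinh1, and the procollagen trimming genes Pcolce, Adamts2 and Bmp1. All 10 are among the 24347 gene symbols of the RNA tables, and all 10 passed the filter on low values that left 12938 genes for testing. RNA was sequenced in 12 libraries, 3 in each of 4 groups of C57BL/6 mouse cells, sorted from collagenase-digested femora and tibiae. CAR cells (CXCL12-abundant reticular cells) were PDGFRα+ and Sca1-, PaS cells were PDGFRα+ and Sca1+, and both were negative for CD45, CD31 and lineage markers. The libraries called wt came from Ebf1+/+ animals and those called ko from Ebf1fl/fl animals. Both genotypes carried Prx1+/cre, a Cre recombinase driven by the Prx1 promoter, which is active in limb bud mesenchyme, so cells outside that lineage keep the floxed allele. The ages of the animals, and whether a library came from 1 animal or a pool, are not given in the sources used here.

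Collagen chains are hydroxylated on proline in the endoplasmic reticulum, which makes the triple helix stable at body temperature, and on lysine, which sets the kind of cross-link that later joins the molecules. A chaperone encoded by Serpinh1 (HSP47) then holds the folded triple helix until it leaves the endoplasmic reticulum, and proteases outside the cell cut off the end propeptides so that fibrils can form. Osteoblasts and fibroblasts, which secrete much type I collagen, are known for high levels of this machinery.

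The labels were checked before the results. Ly6a, which encodes Sca1, had 4.03 to 12.3 FPKM in CAR libraries and 1524 to 2176 FPKM in PaS libraries, and Cxcl12 had 12486 to 14684 and 4127 to 4835 FPKM. FPKM are fragment numbers scaled to transcript length and library total, so levels can be compared between genes. Libraries labelled ko showed no loss of Ebf1 RNA. In CAR cells Ebf1 had 48.1 ± 1.10 FPKM in wt and 57.5 ± 1.99 in ko libraries (SD, n = 3; limma adjusted p = 0.0395), and in PaS cells 55.9 ± 5.89 and 62.5 ± 2.18 FPKM. Its FPKM can include exons outside the deleted part and so do not check the labels, and wt and ko below mean the libraries labelled so. Only 24.6% of symbols were at 0 in replicate 1 of PaS wt, against 33.3% to 37.0% elsewhere. Summed values were 491801 to 526074 FPKM per library. Steps among low values put the relative depths at 0.888 to 1.12 of their mean. Larger differences lay outside the range searched, so they could not have been found. The lowest estimate was that of PaS wt replicate 1, the library with the fewest symbols at 0, and the number of reads is not given.

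Levels differed widely along the pathway. Serpinh1 was the most abundant of the 10 in every group, at 1177 ± 58.0 FPKM in CAR wt and 874 ± 10.6 in PaS wt libraries, and ranked 33 to 65 from the top among tested genes. Pcolce, an extracellular glycoprotein that speeds the removal of the C-propeptide, followed at 534 ± 22.2 in CAR wt and 851 ± 70.6 FPKM in PaS wt libraries. In PaS wt libraries the ranges of Serpinh1 (862 to 882) and Pcolce (778 to 919 FPKM) overlapped, whereas in CAR wt libraries they did not. In CAR wt libraries the order went on with Adamts2, Bmp1, Plod2 and P4ha1, then Plod3 (36.5 ± 2.46) and Plod1 (35.9 ± 4.79 FPKM), whose ranges overlapped, then P4ha2. P4ha3 came last in every group, at 3.81 ± 0.432 FPKM in CAR wt and 18.6 ± 1.61 in PaS wt libraries. The plot of FPKM by library shows all 10 genes.

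**Figure D1:**
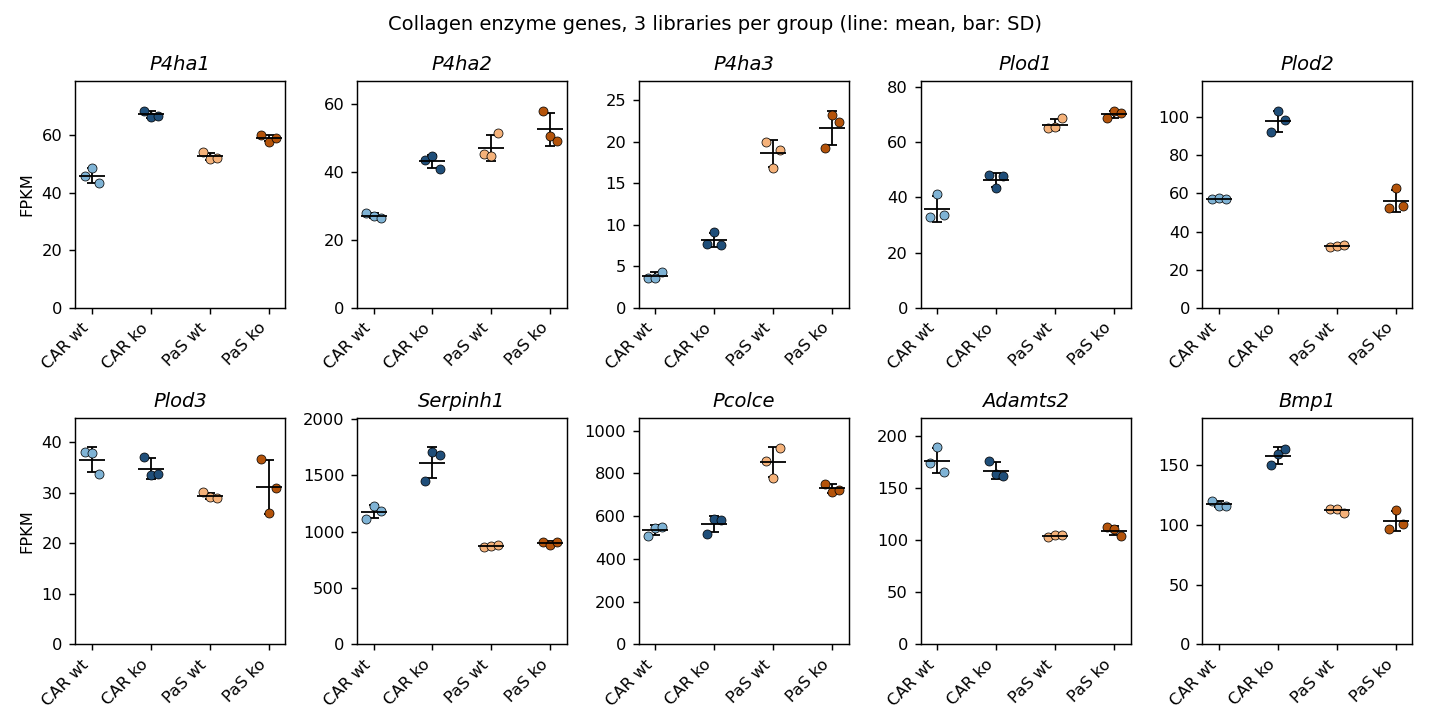
FPKM (linear axis from 0) of the 10 genes in the 12 libraries; points are libraries, the line is the mean and the bar the SD of 3. Plod2 was higher in ko than in wt libraries of both populations. Plod2, P4ha1, Serpinh1 and Bmp1 were each higher in every CAR ko library than in all 9 other libraries.

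The comparison of ko with wt CAR cells asks how this machinery differs when Ebf1 is targeted in limb mesenchyme. Of the 10 genes, 7 rose (all 3 prolyl hydroxylase subunits, Plod1, Plod2, Serpinh1 and Bmp1), 0 fell and 3 did not pass the test. Over all 12938 genes tested, 6.51% were called higher and 5.74% lower in this comparison. The median log2 change was 0.44 over the 10 genes and 0.01 over all tested genes. A gene was called at an adjusted p under 0.05 in limma, and each log2 change is a difference of group means of log2(FPKM + 1).

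Gene spans are from RefSeq on GRCm38.p6 (mm10). The prolyl 4-hydroxylases are tetramers whose catalytic alpha subunit comes from P4ha1, P4ha2 or P4ha3. P4ha1 (chr10:59323197-59373304), the most widely used alpha subunit, had 45.9, 48.6 and 43.2 FPKM in the CAR wt libraries of replicates 1 to 3 and 68.6, 66.4 and 66.7 FPKM in the CAR ko libraries. The groups did not overlap, and the log2 change was 0.54 (SE 0.06, adjusted p = 3.96e-05). P4ha2 (chr11:54100924-54131668), the alpha subunit known from cartilage and bone cells, had 27.8, 27.2 and 26.5 FPKM in CAR wt and 43.6, 44.9 and 41.1 FPKM in CAR ko libraries. All ko values lay above all wt values (log2 change 0.65, SE 0.08, adjusted p = 7.97e-05). P4ha3 (chr7:100285489-100319701) had 3.55, 3.58 and 4.31 FPKM in CAR wt and 7.71, 9.14 and 7.59 FPKM in CAR ko libraries. The groups did not overlap, and the log2 change was 0.93 (SE 0.12, adjusted p = 8.6e-05). At this low level the size depends on the pseudocount, and with 5 in place of 1 it was 0.58, below the 0.72 of Plod2 at that setting. Summed over the 3 genes, the level was 74.0 to 79.3 FPKM in CAR wt and 115 to 120.5 FPKM in CAR ko libraries.

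The stretches before the starts of these 3 genes are printed because the genes rose together and because P4ha1 and P4ha2 are textbook targets of the hypoxia-inducible factors, whose binding core is ACGTG or GCGTG. The sequences are from RefSeq on GRCm38.p6 (mm10), all on the + strand, cut where the outermost transcript begins, with each core on either strand in capitals. They lie at chr10:59323046-59323196, chr11:54100674-54100923 and chr7:100285270-100285488 in the order given.

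P4ha1: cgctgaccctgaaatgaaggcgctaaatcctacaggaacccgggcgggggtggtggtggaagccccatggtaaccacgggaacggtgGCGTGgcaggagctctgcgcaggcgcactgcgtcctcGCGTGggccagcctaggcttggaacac
P4ha2: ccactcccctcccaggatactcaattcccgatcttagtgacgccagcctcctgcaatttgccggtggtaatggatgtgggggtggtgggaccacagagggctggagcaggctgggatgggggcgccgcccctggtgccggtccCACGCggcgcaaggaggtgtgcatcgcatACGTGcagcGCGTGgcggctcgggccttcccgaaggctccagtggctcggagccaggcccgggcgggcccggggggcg
P4ha3: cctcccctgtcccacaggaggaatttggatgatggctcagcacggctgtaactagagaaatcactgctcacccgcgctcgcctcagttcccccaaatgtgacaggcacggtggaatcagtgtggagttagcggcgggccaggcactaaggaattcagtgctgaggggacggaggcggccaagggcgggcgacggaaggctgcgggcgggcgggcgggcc

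In the full window of 250 bases before the annotated start, P4ha1 held 3 such cores, of which 2 are in the printed stretch, P4ha2 held 3 and P4ha3 held 0. Among the other genes that matched the promoter table, Plod3 held 4, Plod1, Serpinh1 and Pcolce held 1 each, and Adamts2 held 0. Plod2 and Bmp1 had no match and were not searched. Of all 32851 windows of that length, 38.6% held at least 1 core and 6.58% at least 3, so a match is common and is a description only. These windows are GC-rich, with 55.6% to 78.0% G and C. The palindrome of TCCC, any 2 bases and GGGA, a form of the EBF binding site, was in none of the 8 matched windows and in 0.779% of all windows.

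Levels of other hypoxia targets were read beside these genes. Of 15 tested genes of that kind, 1 was called higher in CAR ko libraries and 0 lower, beside 6.51% and 5.74% of all tested genes. It was Bnip3, a mitophagy receptor, from 17.7 ± 0.536 to 22.5 ± 2.31 FPKM (log2 change 0.33, limma adjusted p = 0.0304). The median log2 change of the 15 was 0.08. The part of these targets in the members' values was not tested.

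The lysyl hydroxylases differ in the lysines they act on, Plod1 on the triple helix, Plod2 on the telopeptides, and Plod3 also adds glucose to collagen. Plod2 (chr9:92539636-92608428) had 56.9, 57.8 and 56.9 FPKM in CAR wt and 92.0, 103 and 98.5 FPKM in CAR ko libraries. The wt libraries were nearly level and every ko library was higher (log2 change 0.76, SE 0.08, adjusted p = 6.76e-06), the smallest p of the 10 genes. Plod1 (chr4:147909753-147936776) had 32.7, 41.4 and 33.5 FPKM in CAR wt and 48.1, 43.4 and 47.7 FPKM in CAR ko libraries. The groups did not overlap, though wt replicate 2 lay near the lowest ko library (log2 change 0.37, SE 0.08, adjusted p = 0.00873; with only the CAR groups fitted, adjusted p = 0.0506, and 0.000827 to 0.0506 over 16 alternatives). Plod3 (chr5:136987019-136996646) had 38.0, 37.9 and 33.7 FPKM in CAR wt and 37.1, 33.6 and 33.6 FPKM in CAR ko libraries. These ranges overlapped, with a log2 change of -0.07 and a 95% interval of -0.29 to 0.15. A long noncoding RNA overlaps Plod2, and the protein-coding gene Znhit1 overlaps Plod3, in RefSeq. Where counting ignores strand, such reads cannot be told apart.

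Serpinh1 (chr7:99345375-99353239), the collagen chaperone, had 1116, 1232 and 1182 FPKM in CAR wt and 1453, 1704 and 1677 FPKM in CAR ko libraries. The lowest ko library was above the highest wt library (log2 change 0.45, SE 0.06, adjusted p = 0.000159). Of the trimming genes, Bmp1 (chr14:70474555-70520716), which encodes the procollagen C-proteinase, had 120.1, 116 and 116 FPKM in CAR wt and 149.9, 159.7 and 164 FPKM in CAR ko libraries. Again the groups did not overlap (log2 change 0.42, SE 0.06, adjusted p = 0.000387). Adamts2 (chr11:50602085-50807573), the N-proteinase that removes the other propeptide, had 174, 189 and 166 FPKM in CAR wt and 176, 163 and 161 FPKM in CAR ko libraries. Its ranges overlapped (log2 change -0.08, 95% interval -0.21 to 0.05), as did those of Pcolce (chr5:137605105-137611522), at 509, 543 and 551 in wt and 519, 585 and 584 FPKM in ko libraries (log2 change 0.07, 95% interval -0.07 to 0.22). The C-proteinase gene therefore rose in CAR cells while its enhancer and the N-proteinase gene were not called. Overlapping noncoding genes are annotated at Adamts2 and at Bmp1.

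Markers of other cell types also differed between the CAR groups. All 8 osteoblast genes listed (Bglap, Bglap2, Alpl, Ibsp, Sp7, Spp1, Dmp1 and Phex) were called higher, and their summed level was 23009 to 24578 FPKM in wt and 36174 to 44360 FPKM in ko libraries. All 17 blood cell genes were called lower, with sums of 13536 to 15478 FPKM in wt and 6595 to 6814 FPKM in ko libraries, and none of them was listed at 0 in any library. Among chondrocyte genes 3 of 7 tested were called higher and 2 lower, with sums of 957 to 1084 and 1041 to 1153 FPKM. Of 6 genes that mark CAR cells 3 fell, Adipoq (-0.35, adjusted p = 0.000223), Foxc1 (-0.35, adjusted p = 0.00332) and Kitl (-0.29, adjusted p = 0.032), and the median of the 6 was -0.32. Their summed level, most of it Cxcl12, was 15695 to 16490 FPKM in wt and 14784 to 17060 FPKM in ko libraries. Of 6 genes that mark PaS cells 3 were called lower and 1, Ly6a, higher, with sums of 54.0 to 58.8 and 43.0 to 50.5 FPKM. The part of these markers in the result was not tested. In such bulk samples, a different number of cells of a type and a different amount of RNA per cell cannot be told apart.

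**Figure D2:**
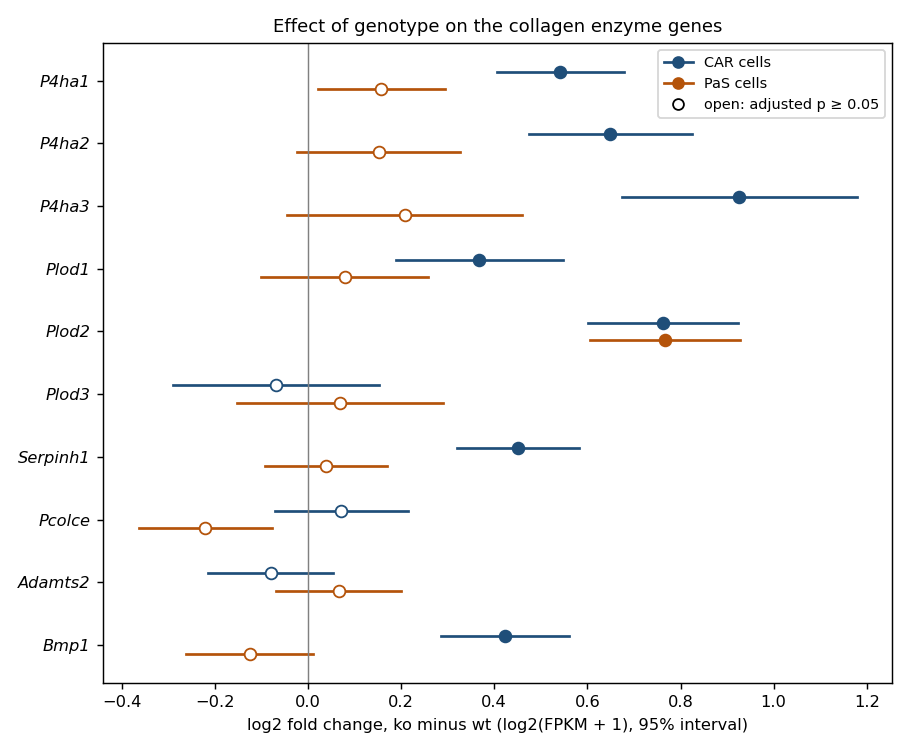
Log2 fold change on the log2(FPKM + 1) scale, ko minus wt, of the 10 genes in CAR (blue) and PaS (brown) cells; bars are 95% intervals of the limma model and open circles did not pass the test. In CAR cells 7 filled circles lie right of 0, in PaS cells only that of Plod2, where both circles nearly coincide (0.76 and 0.77).

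In PaS cells the same comparison gave 1 call among the 10 genes. Plod2 rose from 31.7, 32.6 and 33.1 FPKM in PaS wt libraries to 52.2, 62.6 and 53.4 FPKM in PaS ko libraries. Every ko library was far above the narrow wt range (log2 change 0.77, SE 0.08, adjusted p = 7.01e-06). No member was called lower, and over all tested genes 3.41% were called higher and 4.03% lower. The median log2 change of the 10 was 0.07, against 0.00 for all tested genes.

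Of the prolyl hydroxylase subunits, P4ha1 had 54.2, 51.9 and 52.2 FPKM in PaS wt and 60.0, 57.8 and 59.1 FPKM in PaS ko libraries. The groups did not overlap, but the gene was not called (log2 change 0.16, SE 0.06, adjusted p = 0.178). P4ha2 had 45.4, 44.7 and 51.6 in wt and 58.2, 50.6 and 49.0 FPKM in ko libraries, and P4ha3 had 20.0, 16.8 and 19.1 in wt and 19.3, 23.3 and 22.4 FPKM in ko libraries. Both overlapped between groups, with log2 changes of 0.15 (adjusted p = 0.348) and 0.21 (adjusted p = 0.379).

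Plod1 had 65.1, 65.5 and 68.8 FPKM in PaS wt and 68.8, 71.3 and 70.7 FPKM in PaS ko libraries, with a log2 change of 0.08 (95% interval -0.10 to 0.26). Relative to its mean, Plod3 was the most scattered of the 10 in PaS ko libraries, at 36.6, 26.0 and 31.0 FPKM, beside 30.1, 29.2 and 28.9 FPKM in wt. Its log2 change of 0.07 became -0.049 without PaS ko replicate 1, the highest library. Serpinh1 had 862, 877 and 882 in wt and 904, 879.9 and 909.7 FPKM in ko libraries, so its ranges overlapped (log2 change 0.04, 95% interval -0.09 to 0.17).

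Pcolce had 858, 778 and 919 FPKM in PaS wt and 752, 715 and 721 FPKM in PaS ko libraries. All ko values lay below all wt values, and the log2 change was -0.22 (SE 0.07, adjusted p = 0.063). The call turned on the setting: without PaS wt replicate 2, the lowest wt library, the log2 change was -0.28 (adjusted p = 0.0176), and with library weights -0.25 (adjusted p = 0.0285), with 0.0176 to 0.217 over 16 alternatives. Bmp1 had 113, 113 and 110.2 in wt and 96.2, 112 and 101 FPKM in ko libraries, and its ranges overlapped (log2 change -0.13, adjusted p = 0.313). Adamts2 had 103, 105 and 105 in wt and 113, 111 and 104 FPKM in ko libraries, with a log2 change of 0.07 (adjusted p = 0.634).

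The marker lists also differed between the PaS groups. Of the 8 osteoblast genes 7 were called higher in PaS ko libraries, with sums of 2896 to 3219 FPKM in wt and 4567 to 5031 FPKM in ko libraries. Of the 17 blood cell genes 9 were called lower and 2 higher (sums of 25205 to 28402 and 10455 to 11033 FPKM), and 5 of 7 tested chondrocyte genes were called higher (1526 to 1688 and 1924 to 2123 FPKM). Of 4 pericyte and smooth muscle genes 3 were called higher (13.8 to 18.5 and 33.4 to 34.4 FPKM). Of the 6 genes that mark PaS cells 4 fell, Dpp4 (-1.08, adjusted p = 0.00228), Pi16 (-0.85, adjusted p = 0.00354), Anxa3 (-0.65, adjusted p = 1.16e-05) and Cd34 (-0.50, adjusted p = 0.00649), and the median of the 6 was -0.57. Their summed level was 3127 to 3653 FPKM in wt and 2499 to 2576 FPKM in ko libraries. Pdgfra, which encodes the receptor used in the sort, fell from 142 ± 6.64 to 111 ± 4.57 FPKM (-0.36, adjusted p = 0.00316). The median of the 6 CAR marker genes was 0.01 in PaS cells. Their part in the members' values was not tested. Among hypoxia targets 1 of 15 was called higher and 0 lower, beside 3.41% and 4.03% of all tested genes. It was Egln3, an oxygen-sensing prolyl hydroxylase, at 1.89 ± 0.503 FPKM in wt and 4.73 ± 1.69 in ko libraries (log2 change 0.95, limma adjusted p = 0.0264). The part of these targets was not tested either.

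Whether the effect of genotype differed between CAR and PaS cells was tested as the difference of both effects, CAR minus PaS. It was called for 5 of the 10 genes, all in the direction of a larger effect in CAR cells, where 3.32% of all tested genes were called in that direction and 3.26% in the other. The difference was 0.55 for Bmp1 (SE 0.09, adjusted p = 0.00164), 0.41 for Serpinh1 (SE 0.09, adjusted p = 0.00959), 0.72 for P4ha3 (SE 0.17, adjusted p = 0.0175), 0.50 for P4ha2 (SE 0.12, adjusted p = 0.0178) and 0.38 for P4ha1 (SE 0.09, adjusted p = 0.0182). The call of Serpinh1 was lost under quantile normalization (0.29, adjusted p = 0.0854) and that of P4ha3 with a pseudocount of 5 (0.40, adjusted p = 0.0683). Over 21 alternatives the adjusted p ranged from 0.000682 to 0.0854 for Serpinh1 and from 0.00982 to 0.0683 for P4ha3. For Plod2 the difference was -0.00, with a 95% interval of -0.23 to 0.22.

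For Plod1 the difference was 0.29 (adjusted p = 0.181), or 0.39 (adjusted p = 0.0312) without CAR wt replicate 2, its highest CAR wt library (0.0312 to 0.337 over 21 alternatives). For Pcolce it was 0.29 (adjusted p = 0.0868), and it passed the test without CAR ko replicate 1 (0.35, adjusted p = 0.0346), without PaS wt replicate 2 (0.36, adjusted p = 0.0294) and with library weights (0.34, adjusted p = 0.0288), with 0.0288 to 0.191 over 21 alternatives. Plod3 and Adamts2 had differences of -0.14 and -0.15 (adjusted p = 0.665 and 0.394). The osteoblast list, which was higher in ko libraries of both populations, had a median difference of 0.05 on the log2 scale, with 2 of 8 genes called. In FPKM the populations were unlike. The mean sum of the list was 23648 in CAR wt and 40980 in CAR ko, but 3032 in PaS wt and 4754 in PaS ko libraries. The part of this list in the members' differences was not tested.

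The populations themselves differed in the levels of these genes, all of which were detected in both. Among wt libraries 9 of the 10 genes were called, 4 higher in CAR and 5 higher in PaS cells, where 20.5% of all tested genes were called higher in CAR and 22.7% lower. Higher in CAR wt were Plod2 (log2 difference 0.80, adjusted p = 3.44e-07), Adamts2 (0.75, adjusted p = 8.08e-08), Serpinh1 (0.43, adjusted p = 3.65e-05) and Plod3 (0.30, adjusted p = 0.0279). Lower in CAR wt were P4ha3 (-2.03, adjusted p = 9.74e-10), Plod1 (-0.88, adjusted p = 3.97e-07), P4ha2 (-0.77, adjusted p = 1.33e-06), Pcolce (-0.67, adjusted p = 7.21e-07) and P4ha1 (-0.20, adjusted p = 0.02). Bmp1 was not called (0.06, 95% interval -0.07 to 0.20). Its CAR wt libraries, at 116 to 120.1 FPKM, still lay above its PaS wt libraries, at 110.2 to 113. All 8 osteoblast genes were called higher in CAR wt, with sums of 23009 to 24578 FPKM against 2896 to 3219 in PaS wt libraries. Of the 17 blood cell genes 3 were called higher and 7 lower, with sums of 13536 to 15478 and 25205 to 28402 FPKM. The part of these markers in the members' differences was not tested.

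The calls of Plod3 and P4ha1 among wt libraries lay near the threshold. With fewer libraries or another setting the log2 difference of Plod3 stayed at 0.27 to 0.36 and that of P4ha1 at -0.24 to -0.14. The call of Plod3 was lost without CAR wt replicate 1 (adjusted p = 0.0879), CAR wt replicate 2 (0.0814), PaS wt replicate 2 (0.0609) or PaS wt replicate 3 (0.0697), and without a filter (0.0549), with 0.00952 to 0.0879 over 16 alternatives. That of P4ha1 was lost without CAR wt replicate 3 (adjusted p = 0.0928) or PaS wt replicate 1 (0.0678), under quantile normalization (0.0996) and with only the wt groups fitted (0.0576), with 0.00659 to 0.0996 over 16 alternatives. The other 7 calls held under every alternative tried.

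Among ko libraries 9 of the 10 were called, 5 higher in CAR and 4 lower, beside 17.0% and 19.8% of all tested genes. Serpinh1 (0.84, adjusted p = 1.95e-08), Plod2 (0.80, adjusted p = 3.94e-07), Bmp1 (0.61, adjusted p = 1.27e-06), Adamts2 (0.61, adjusted p = 1.12e-06) and P4ha1 (0.19, adjusted p = 0.0308) were higher in CAR ko. P4ha3 (-1.31, adjusted p = 2.25e-07), Plod1 (-0.59, adjusted p = 3.54e-05), Pcolce (-0.38, adjusted p = 0.000317) and P4ha2 (-0.28, adjusted p = 0.0148) were lower. P4ha1 thus lay below its PaS level in wt and above it in ko CAR libraries, at 45.9 ± 2.66 and 52.7 ± 1.25 FPKM in wt and at 67.2 ± 1.18 and 58.9 ± 1.10 FPKM in ko. The ko differences of P4ha1, 0.17 to 0.24 over 16 alternatives, and of P4ha2, -0.32 to -0.20, kept their direction. The call of P4ha1 was lost without CAR ko replicate 1 (adjusted p = 0.0849), 2 (0.0606) or 3 (0.0635), or PaS ko replicate 2 (0.0866) or 3 (0.066), with 0.0093 to 0.0866 over 16 alternatives. That of P4ha2 was lost without CAR ko replicate 3 (0.0635) or PaS ko replicate 1 (0.0818), with 0.0118 to 0.0818 over 16. Plod3 had 0.16 (adjusted p = 0.245), or 0.28 (adjusted p = 0.0361) without PaS ko replicate 1, and 0.0361 to 0.781 over 16. These comparisons share libraries with those of genotype and are not independent of them. Among ko libraries all 8 osteoblast genes were called higher in CAR, and of 17 blood cell genes 3 were called higher and 13 lower. The part of these markers was not tested here either.

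**Figure D3:**
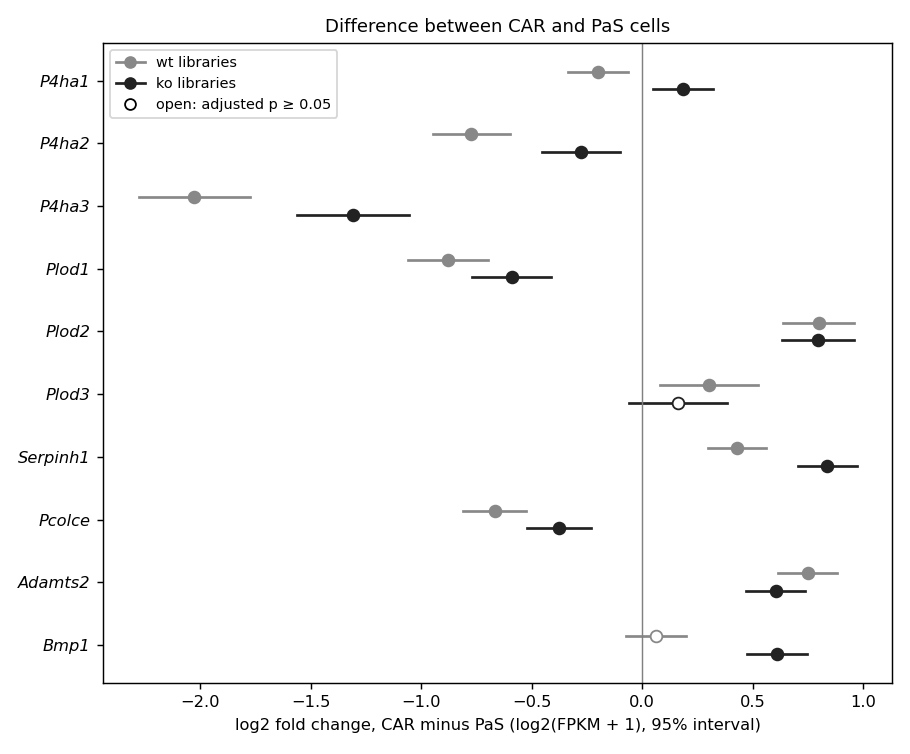
Log2 difference on the log2(FPKM + 1) scale, CAR minus PaS, of the 10 genes in wt (grey) and ko (black) libraries, with 95% intervals; open circles did not pass the test. P4ha3 is farthest left in both (-2.03 and -1.31), and P4ha1 changes side of 0 between wt (-0.20) and ko (0.19).

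Since FPKM are per length, the makeup of each enzyme family could be read within a library whatever its scaling. P4ha1 gave 59.7% ± 1.43 of the summed P4ha1, P4ha2 and P4ha3 FPKM in CAR wt and 56.7% ± 1.40 in CAR ko libraries, but 44.5% ± 1.78 in PaS wt and 44.3% ± 0.865 in PaS ko libraries (SD, n = 3). The CAR libraries, at 55.1% to 61.2%, did not overlap the PaS libraries, at 42.5% to 45.8%. P4ha3 gave 4.98% ± 0.736 in CAR wt, 6.87% ± 0.626 in CAR ko, 15.7% ± 0.936 in PaS wt and 16.3% ± 1.97 in PaS ko libraries. The summed level of the 3 genes in CAR ko, 119 ± 2.83 FPKM, was about that of PaS wt libraries, 119 ± 4.79 FPKM, and PaS ko libraries had 133 ± 3.69 FPKM.

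The lysyl hydroxylase family was led by Plod2 in CAR and by Plod1 in PaS cells. Plod2 gave 44.2% ± 1.88 of the family's summed FPKM in CAR wt and 54.7% ± 2.67 in CAR ko libraries, a difference of 10.5 percentage points. In PaS cells it gave 25.3% ± 0.303 in wt and 35.6% ± 3.19 in ko libraries, a difference of 10.3 points. Plod1 gave 51.8% ± 0.708 in PaS wt and 44.6% ± 0.962 in PaS ko libraries, and 27.6% ± 2.33 and 25.9% ± 1.61 in CAR wt and ko libraries. The Plod2 share did not overlap between groups in any of the 4 comparisons, and each two-sided exact permutation p was 0.1, the lowest value possible with 3 libraries against 3. For the P4ha1 share the exact permutation p was 0.1 between populations in each genotype and between CAR wt and ko, and 0.8 between PaS wt and ko. All these tests had n = 3 against 3, so none could reach 0.05. Adjusted over the 8 tests, the exact permutation p of 0.1 became 0.114.

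**Figure D4:**
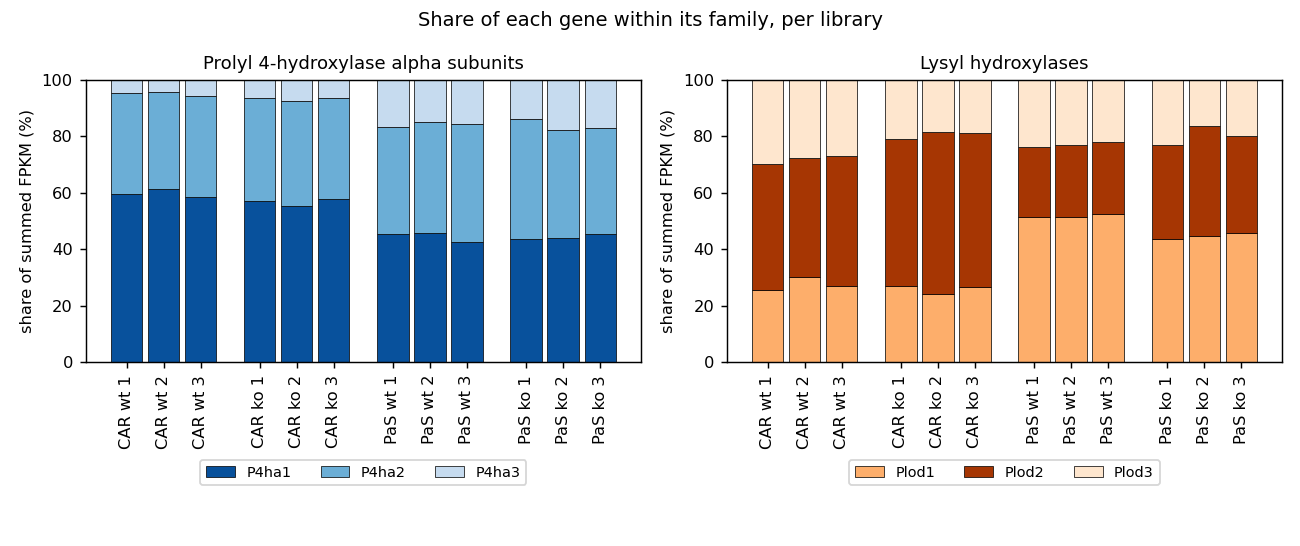
Stacked share (%) of each gene in the summed FPKM of its family, 1 bar per library; left the prolyl 4-hydroxylase alpha subunits, right the lysyl hydroxylases. Plod2 is the widest band of its family in CAR libraries (42.2% to 57.3%) and Plod1 in PaS libraries (43.6% to 52.6%).

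Of the other genes of collagen biosynthesis, a list of 27 was read beside the members, and 26 were tested. In CAR cells 11 rose and 2 fell, beside 6.51% and 5.74% of all tested genes, with a median log2 change of 0.15. Those of smallest p were Fkbp10, an isomerase that works with lysyl hydroxylase on telopeptides (174 ± 4.36 to 256 ± 23.1 FPKM, log2 change 0.55, adjusted p = 7.19e-05), and Lox, the lysyl oxidase that starts cross-linking (153 ± 3.32 to 211 ± 9.01 FPKM, 0.46, adjusted p = 0.000107). They were followed by P3h4, a noncatalytic relative of the prolyl 3-hydroxylases (50.6 ± 0.572 to 71.6 ± 2.55 FPKM, 0.49, adjusted p = 0.000126), and Fkbp14, also an isomerase of the endoplasmic reticulum (37.1 ± 2.76 to 59.2 ± 4.72 FPKM, 0.66, adjusted p = 0.000126). P4hb, the shared beta subunit of the prolyl 4-hydroxylases, rose from 500.0 ± 16.5 to 626 ± 13.0 FPKM (0.32, adjusted p = 0.000298). The genes that fell were Loxl1, a lysyl oxidase relative of elastic fibres (-0.29, adjusted p = 0.00318), and Pcolce2, another C-proteinase enhancer (-0.27, adjusted p = 0.0309).

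In PaS cells 2 of the 26 rose and 2 fell, beside 3.41% and 4.03% of all tested genes, and the median was 0.03. Lox rose from 70.1 ± 3.08 to 91.3 ± 4.10 FPKM (log2 change 0.38, adjusted p = 0.000772) and P3h4 from 49.7 ± 2.46 to 59.2 ± 2.90 FPKM (0.25, adjusted p = 0.0305). Pcolce2 fell from 364 ± 14.4 to 252 ± 13.8 FPKM (-0.53, adjusted p = 0.00028) and Loxl1 from 86.6 ± 1.64 to 71.3 ± 1.44 FPKM (-0.28, adjusted p = 0.00648). P4hb was level in PaS cells, at 498 ± 7.81 in wt and 499.9 ± 5.02 FPKM in ko libraries, and its effect was larger in CAR cells (difference 0.32, adjusted p = 0.00959).

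The difference of effects was called larger in CAR cells for 3.32% of all tested genes and in the other direction for 3.26%. Of the 26 it was called for 6, all larger in CAR cells, and 0 in the other direction. Besides P4hb they included Fkbp14 (0.65, adjusted p = 0.00478), Fkbp10 (0.43, adjusted p = 0.0137) and the collagen uptake receptor gene Mrc2 (0.42, adjusted p = 0.0221). The count of 6 fell to 3 without CAR wt replicate 3, PaS wt replicate 1 or PaS ko replicate 3. Between wt populations 10 of the 26 were higher in CAR and 4 lower, beside 20.5% and 22.7% of all tested genes. Smallest in p was Pcolce2, at 3.65 ± 0.0980 FPKM in CAR wt and 364 ± 14.4 FPKM in PaS wt libraries (log2 difference -6.29, adjusted p = 3.1e-17). Next was Lox (1.12, adjusted p = 3.7e-10). Of the other named genes, P3h2, a prolyl 3-hydroxylase, had 1.30 (adjusted p = 1.12e-08) and Colgalt2, a collagen galactosyltransferase, -1.96 (adjusted p = 2.28e-07). Between ko populations 17 were higher in CAR and 2 lower, beside 17.0% and 19.8% of all tested genes. Pcolce2 again differed most, at -6.03 (adjusted p = 5.86e-17), and next in order of p were Lox at 1.20 (adjusted p = 1.8e-10), Creb3l1, a transcription factor for collagen secretion in osteoblasts, at 1.03 (adjusted p = 8.19e-09) and Fkbp10 at 0.90 (adjusted p = 2.82e-08).

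**Figure D5:**
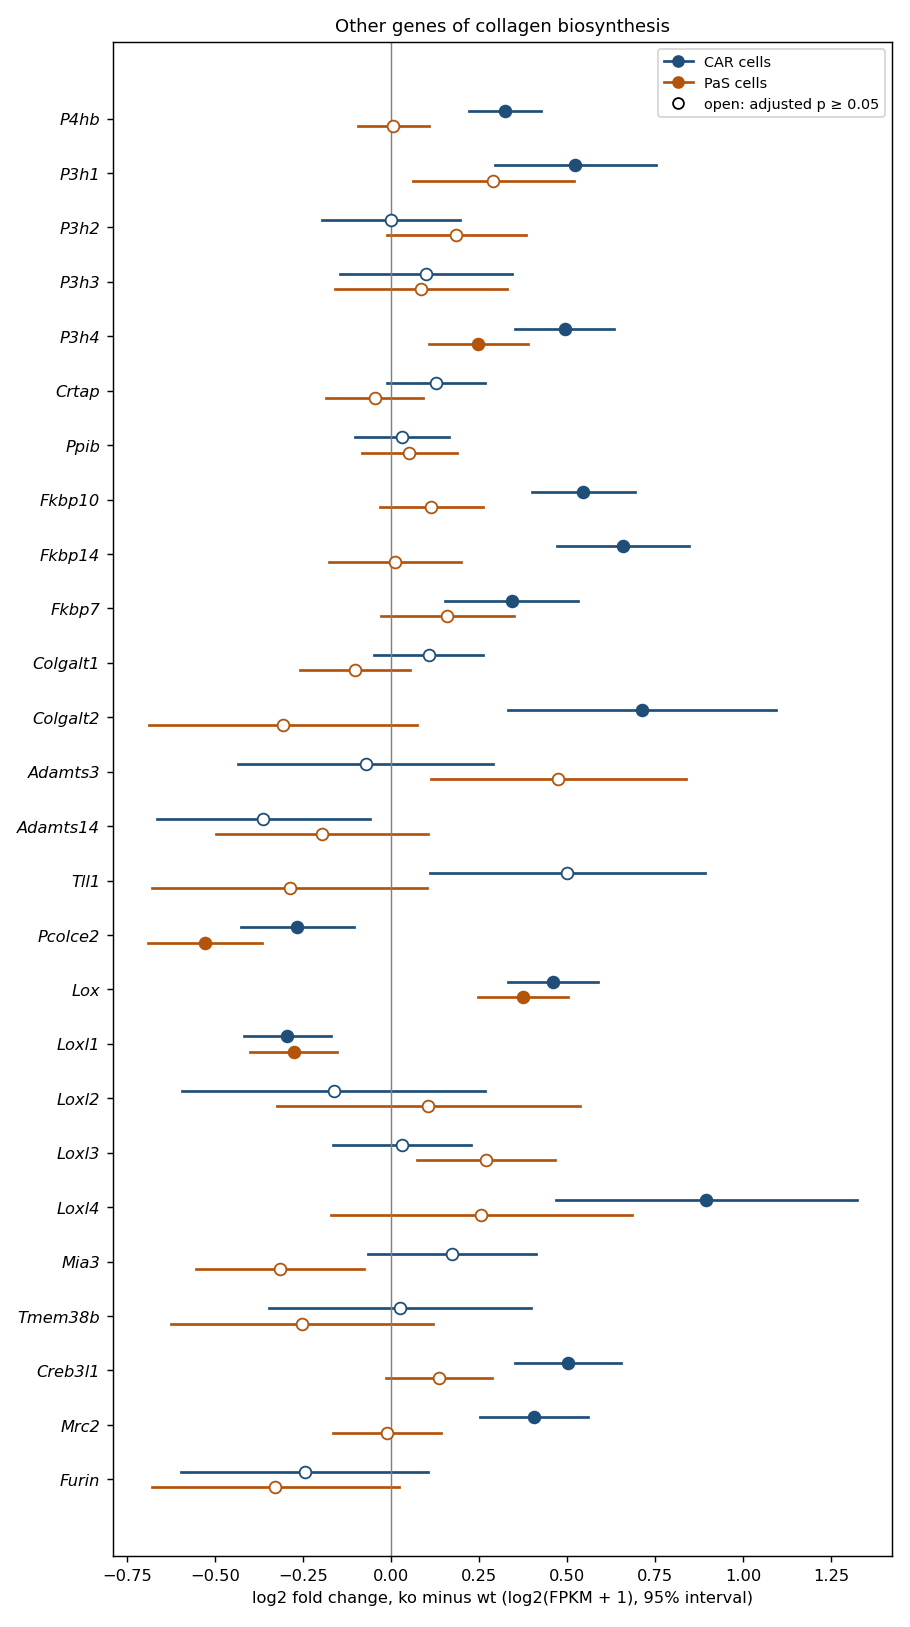
Log2 fold change on the log2(FPKM + 1) scale, ko minus wt, of the 26 tested companion genes in CAR (blue) and PaS (brown) cells with 95% intervals; open circles did not pass the test. In CAR cells 11 filled circles lie right of 0 and 2 left of it; Lox, P3h4, Loxl1 and Pcolce2 are filled in both populations.

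The substrates of these enzymes were counted as well. Of 11 fibrillar collagen genes, 5 were called higher and 2 lower in CAR ko libraries, beside 6.51% and 5.74% of all tested genes. In PaS ko libraries 4 were called higher and 1 lower, beside 3.41% and 4.03%. Of these calls, the lower value of Col1a1 comes from CAR ko replicates 2 and 3, where it is listed at 0, beside 4677 FPKM in replicate 1 and 4951 to 5482 FPKM in CAR wt libraries. Col1a2 is listed at 0 in CAR ko replicate 2. A ratio of the enzymes to type I collagen was therefore not computed.

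Across the 12 libraries, which fall into 2 populations that set most of any correlation, the genes most like the 3 members of widest range were named as a description. For P4ha3 they were Egln1 (Pearson r = 0.996), Anxa8 (0.991) and Sod3 (0.988), of which Egln1 is among the hypoxia targets counted above. For Plod2 they were Socs2 (0.994), Omd (0.984) and Rerg (0.975), and for Plod1 they were Clic4 (0.990), Fxyd6 (0.985) and Anxa8 (0.981). The pattern of Plod2 was lowest in PaS wt, level between CAR wt (57.2 ± 0.517) and PaS ko (56.1 ± 5.71 FPKM), whose ranges overlapped, and highest in CAR ko libraries (97.9 ± 5.62 FPKM). The level of P4ha3 was lowest in CAR wt, then CAR ko libraries, and its ranges in the PaS groups overlapped above both.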

How the data were processed

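RNA was isolated with a column kit, enriched with oligo dT beads and made into SMART-Seq v4 libraries, per the labels' protocols. The authors deposited FPKM, 1 table of 24347 gene symbols per library. The submitters' processing notes name TopHat2 2.0.14, Cufflinks 2.2.1, Cuffnorm 2.2.1 and Cuffdiff on mm10; annotation, filters and strand are not given in the sources used here. The other 8 samples, ATAC-seq, were not analysed here.

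The unit was read from the tools named and the values. The 12938 genes that reached 1 FPKM in 3 or more libraries were fitted as log2(FPKM + 1) in 1 model of 4 groups, using R 4.3.3 and the limma package, version 3.58.1 (eBayes with trend; 8 residual and 6.95 prior degrees of freedom). This two-sided test, with Benjamini-Hochberg adjustment over all tested genes, gave every adjusted p; a call is an adjusted p under 0.05. Errors beside FPKM are SDs, errors of fold changes are standard errors. The scale understates changes of low genes. Figures used matplotlib 3.10.9. The test was tried on independent normal values simulated with the model's own spreads. Such a trial cannot show whether the model's assumptions hold for these data.

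No read counts are given, so no counting interval was computed. Replicates were distinct: at most 1 gene at 1 FPKM or more had an identical value in a pair. The labels do not say that replicates are separate animals, so p-values measure the spread between these samples, which may be technical.

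The members and lists were chosen with earlier results of these data known, and no list was tested as a set. All 10 members are named in every comparison, with up to 4 called companion genes of smallest p; P4hb in CAR and PaS cells and the fallen genes Loxl1 and Pcolce2 in CAR cells were added after their values were seen. Symbols are those of the files, and 8 of the 10 members matched a RefSeq promoter. Alternatives were pseudocounts of 0.1 and 5, quantile normalization, median-ratio scaling, dropping the filter or raising it to 5 FPKM, weights per library, only the groups compared, a replicate block, treating a 0 as missing if any replicate reached 100 FPKM, and leaving out each library.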

Additional observations from a re-analysis of the deposited data

Results flagged for a closer look

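The effect of genotype differed between CAR and PaS cells, by the test of the difference itself, for 5 of the 10 genes. All 5 lay in the direction of a larger effect in CAR cells. Over all tested genes 3.32% were called in that direction and 3.26% in the other. The differences, CAR minus PaS on the log2(FPKM + 1) scale, were 0.38 for P4ha1, 0.50 for P4ha2, 0.72 for P4ha3, 0.41 for Serpinh1 and 0.55 for Bmp1. For the first 4 genes both effects had the same sign, and for Bmp1 the effect was 0.42 in CAR and -0.13 in PaS cells, the latter not called. The call of Serpinh1 was lost under quantile normalization (limma adjusted p = 0.0854) and that of P4ha3 with a pseudocount of 5 (limma adjusted p = 0.0683). Groups of 3 libraries are too small for a test of single outlying libraries.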

How the results depend on the processing

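Of 850 values of the 10 genes under the alternatives, 817 kept their direction and their side of the threshold, 19 lost the call, 7 gained it and 7 changed sign, none of them for a called value. The changes of sign were in Plod2's difference of effects, 0.023 with a pseudocount of 5, 0.016 with library weights and -0.051 to 0.078 without single libraries, and in Plod3 in PaS cells, -0.049 to 0.19 without single libraries. The count of 7 genes called in CAR cells held under every alternative except fitting only the CAR groups, which gave 6. The count of 1 in PaS cells became 2 with library weights and was 1 to 2 without single libraries; the added gene was Pcolce. Counts over the companion list, which were added to the alternatives after seeing the data, ranged from 3 to 6 for the difference of effects without single libraries; its other counts differed by at most 1.5 times. The cause of these changes was not tested. With the replicate block 7 of the 10 genes were called in CAR and 1 in PaS cells, 5 for the difference and 9 between populations in each genotype, and no call among them changed. The labels do not say whether same-numbered libraries share animals, and in the main model they were not taken as pairs. Their deviations correlated at -0.04 to 0.18, which cannot decide this with 3 libraries in a group. The read depth, which is not given, limits what can be said of P4ha3, the lowest of the 10 genes.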
